A study of Homo sapiens with 6 samples.

Results

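The group described here is the 2 chaperonin machines of the human cell, given by 10 genes. Of these, 8 (TCP1, CCT2, CCT3, CCT4, CCT5, CCT6A, CCT7 and CCT8) encode the subunits of the cytosolic CCT/TRiC complex, and 2 (HSPD1 and HSPE1) encode the mitochondrial chaperonin HSP60 and its lid HSP10. The members were chosen by symbol, with no use of their measured values, and all 10 were found among the 56305 genes counted. RNA was sequenced from MOLM13, an acute myeloid leukemia cell line with an internal tandem duplication of FLT3 and a t(9;11)(p22;q23) translocation, in 3 libraries from cells given DMSO and 3 from cells given ZW27941 at 1 μM, both for 24 h. ZW27941 is a proteolysis-targeting chimera, a molecule that links a ligand of METTL3 to a ligand of the VHL ubiquitin ligase so that METTL3, the enzyme that writes m6A on mRNA, is degraded. All libraries came from the same line, and neither the labels nor the methods say whether the libraries of a group came from separate cultures, so p-values measure only the spread between these libraries.

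Chaperonins are double rings that enclose an unfolded protein and let it fold with the use of ATP. CCT stacks a pair of rings, each built of every one of its subunits once, and is the obligate folding machine of actin and tubulin. It takes substrates from prefoldin, and WD-repeat proteins and cell cycle proteins also pass through it. HSP60 folds proteins newly imported into the mitochondrial matrix, where HSP10 closes its ring, and the transcription factor HSF1 is a known activator of both of these genes under heat stress.

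The libraries held between 143454176 and 178744976 counts on genes. These totals are above the number of raw reads per sample that the labels state, and the reason is not given in the sources used here. A member had between 3495 counts (HSPE1 in ZW27941 replicate 2) and 143068 counts (HSPD1 in ZW27941 replicate 1) in a library, and all 10 members passed the filter on low counts. The 7 myeloid leukemia markers examined, among them PTPRC, CD33, FLT3 and HOXA9, summed to between 2256 and 2319 CPM (counts scaled to a library of common size, with TMM factors) in DMSO and to between 2497 and 2554 CPM on ZW27941. LYZ had the highest level of these markers, with a mean of 963 CPM in DMSO and 1160 CPM on ZW27941, so it weighs most in these sums. FLT3, HOXA9 and MEIS1 had lower means on ZW27941 and CD33 a higher one (log2 fold changes −0.022, −0.061, −0.022 and 0.031), and none of them passed. The 5 markers of T cells, B cells, epithelium and fibroblasts summed to between 1.42 and 1.76 CPM in DMSO and to between 1.16 and 1.68 CPM on ZW27941, with EPCAM at 0 in DMSO replicates 1 and 3 and ZW27941 replicate 2. Of the myeloid markers, LYZ, CSF3R and PTPRC were higher on ZW27941 (log2 fold changes 0.27, 0.086 and 0.074) and 0 were lower by edgeR's quasi-likelihood test or the other tests run, with 1 lower at an unadjusted p under 0.05; the part of this in the members' values was not tested. METTL3 is degraded as a protein, so its transcript does not check the labels. ZW27941 replicate 3 had the largest share of reads aligned to several places, 5.25%, against 3.63% to 4.07% in the other libraries.

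The control regions of the members are shown first, for the pair that shares one and for CCT genes that did and did not pass the test. HSPD1 and HSPE1 lie head to head on chromosome 2 and are transcribed in opposite directions, from RefSeq starts at positions 197500274 and 197500379 of GRCh38.p14, with 104 bases between them. That shared stretch is chr2:197500275-197500378, written here on the plus strand, which is the strand of HSPE1. The capitals mark an E-box (CACGTG), the sequence bound by MYC and USF proteins.
HSPD1-HSPE1: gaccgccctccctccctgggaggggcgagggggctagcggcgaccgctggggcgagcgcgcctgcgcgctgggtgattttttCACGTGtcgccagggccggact

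For the CCT genes, the 120 bases before the RefSeq start are given for the gene with the largest fall on ZW27941 (CCT8), for 2 others that fell (TCP1 and CCT2) and for the 2 that did not pass the test (CCT3 and CCT7). Those of CCT4, CCT5 and CCT6A, which fell too, are not printed. They lie at chr21:29073649-29073768 on the minus strand, chr6:159789603-159789722 on the minus strand, chr12:69585339-69585458 on the plus strand, chr1:156338293-156338412 on the minus strand and chr2:73234188-73234307 on the plus strand of GRCh38.p14. Capitals mark a CCAAT box (CCAAT, or ATTGG on the other strand) or an ETS core (CGGAAG, or CTTCCG on the other strand).
CCT8: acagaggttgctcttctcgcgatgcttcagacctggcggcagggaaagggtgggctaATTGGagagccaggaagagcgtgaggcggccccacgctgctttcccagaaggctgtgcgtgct
TCP1: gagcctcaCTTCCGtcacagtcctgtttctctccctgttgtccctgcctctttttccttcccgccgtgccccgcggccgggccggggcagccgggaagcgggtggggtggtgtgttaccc
CCT2: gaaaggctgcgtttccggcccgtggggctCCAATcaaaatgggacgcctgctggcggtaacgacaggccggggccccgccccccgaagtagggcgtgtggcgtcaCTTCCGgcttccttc
CCT3: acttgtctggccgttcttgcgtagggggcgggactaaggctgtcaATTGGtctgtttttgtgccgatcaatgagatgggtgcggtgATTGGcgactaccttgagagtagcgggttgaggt
CCT7: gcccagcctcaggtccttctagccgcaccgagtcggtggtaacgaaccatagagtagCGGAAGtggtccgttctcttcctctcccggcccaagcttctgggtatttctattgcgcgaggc

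RefSeq promoter windows were matched for 9 of the 10 members, and CCT6A had none. In the 250 bases before a start, searched on both strands, a CCAAT box occurred in 4 of the 9 genes (TCP1, CCT2, CCT3 and CCT8) and in 32.0% of all 35116 windows. An ETS core occurred in 5 (TCP1, CCT2, CCT5, CCT7 and HSPE1) and in 16.5% of all windows. An E-box was found in 2 (HSPD1 and HSPE1, which share it) and in 6.3% of all windows. Of the heat shock element, the binding site of HSF1, only short parts were searched, so a single match is not a whole element. The part GAANNTTC was in TCP1, CCT2 and HSPD1 and in 5.8% of all windows. The part TTCNNGAA was in HSPD1 and in 6.6% of all windows. The HSPD1 matches lay in a window of a second start, at 245 (TTCTGGAA), 240 (GAAAGTTC) and 235 (TTCTGGAA) bases before it. They overlapped end to end, so together they form an unbroken run of alternating TTC and GAA units, longer than either part searched. Whether HSF1 binds this run was not tested. Both CCAAT boxes and ETS cores stood before genes that fell and before genes that did not pass the test, so these letters did not separate them. CCT4, which also fell, had a window that held none of the sequences searched. A gene with several starts had several windows, and a match is a description of the letters only.

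Transcripts of the cytosolic chaperonin were lower on ZW27941, and those of the mitochondrial chaperonin were not detectably different. Of the 8 CCT subunits, 6 fell and 0 rose, with log2 fold changes from −0.22 for CCT8 to −0.053 for CCT3, and all 8 had a lower mean. Neither HSPD1 nor HSPE1 passed the test in either direction, by edgeR's quasi-likelihood test at a Benjamini-Hochberg adjusted p under 0.05. Among all 20399 genes tested, 13.8% (2816 genes) were lower and 16.3% (3333 genes) were higher by the same rule, and with upper quartile normalization 3643 were lower and 2644 higher. The median log2 fold change was −0.12 over the CCT subunits and −0.0019 over all genes tested. In 6 of the 8 subunits every ZW27941 library lay below every DMSO library, which held for 19.9% of all genes tested, and in 0 did every ZW27941 library lie above, which held for 21.7%. With DESeq2, edgeR's exact test or its likelihood ratio test, likewise 6 subunits were lower and 0 higher, and 0 mitochondrial members were called. At an unadjusted p under 0.05, 7 subunits were lower, and 0 of the 10 members were higher. In bulk RNA, fewer cells of a type and less RNA per cell cannot be told apart.

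**Figure D1:**
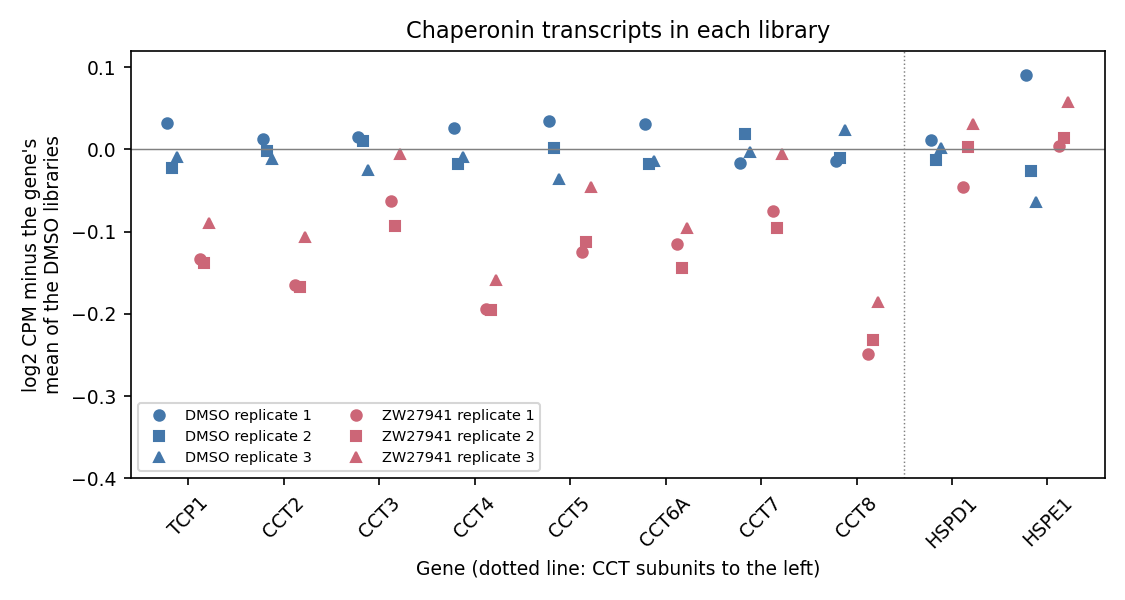
Each point is 1 library, drawn for 10 genes on the x axis as its log2 CPM minus the mean log2 CPM of the 3 DMSO libraries of that gene (y axis); blue marks DMSO, red ZW27941, and the shape gives the replicate number. The red points lie below every blue point in 6 of the 8 CCT subunits, and both colours mix for CCT3, CCT7, HSPD1 and HSPE1.

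CCT8, the theta subunit (chr21:29055805-29073797, minus strand), was the CCT gene with the most counts and had the largest fall. In DMSO it was at 611, 613 and 627 CPM, and on ZW27941 at 519, 525 and 543 CPM. The groups were separated by a wide gap. CCT8 fell by 14.3%, a log2 fold change of −0.22 (standard error 0.025, 95% confidence interval −0.27 to −0.17, edgeR quasi-likelihood adjusted p = 8.77e-07 with Benjamini-Hochberg adjustment). The size of this change was larger than that of 72.7% of all genes tested. That ranking runs over genes of all count levels and takes no account of the error of each fold change.

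CCT4, the delta subunit (chr2:61868089-61888804, minus strand), was at 299, 290 and 292 CPM in DMSO and at 257, 257 and 263 CPM on ZW27941. Its libraries did not overlap between the groups. CCT4 fell by 11.9%, with a log2 fold change of −0.18 (standard error 0.024, edgeR quasi-likelihood adjusted p = 6.26e-06 with Benjamini-Hochberg adjustment). For CCT2, the beta subunit (chr12:69585334-69601570, plus strand), the DMSO libraries were at 344, 340 and 338 CPM and the ZW27941 libraries at 304, 303 and 316 CPM. The DMSO values lay close together and all above the ZW27941 values. The log2 fold change of CCT2 was −0.15 (standard error 0.025, edgeR quasi-likelihood adjusted p = 0.000112 with Benjamini-Hochberg adjustment), and it fell by 9.60%.

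TCP1, the alpha subunit and the gene after which the complex was named (chr6:159778498-159789749, minus strand), was at 489, 471 and 476 CPM in DMSO and at 437, 435 and 450 CPM on ZW27941. The lowest DMSO library was above the highest ZW27941 library. TCP1 fell by a log2 fold change of 0.12 (standard error 0.025, edgeR quasi-likelihood adjusted p = 0.000891 with Benjamini-Hochberg adjustment). In GENCODE v29, 15.9% of its main transcript is overlapped from the other strand by ACAT2, a gene of acetyl-CoA metabolism that had a log2 fold change of −0.36 (edgeR quasi-likelihood adjusted p = 6.34e-08 with Benjamini-Hochberg adjustment). Whether counting used strand is not given in the sources used here, and the part of shared reads in the change of TCP1 was not tested.

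CCT6A, the zeta subunit of most tissues (chr7:56051630-56063989, plus strand), was at 306, 296 and 297 CPM in DMSO and at 276, 271 and 280 CPM on ZW27941. Its groups did not overlap. The log2 fold change of CCT6A was −0.12 (standard error 0.025, edgeR quasi-likelihood adjusted p = 0.000866 with Benjamini-Hochberg adjustment). CCT5, the epsilon subunit (chr5:10249921-10266412, plus strand), was at 492, 481 and 468 CPM in DMSO and at 440, 444 and 465 CPM on ZW27941. Here the highest ZW27941 library, replicate 3, came close to the lowest DMSO library. The log2 fold change of CCT5 was −0.094 (standard error 0.027, edgeR quasi-likelihood adjusted p = 0.0107 with Benjamini-Hochberg adjustment), and this call was lost without DMSO replicate 1, ZW27941 replicate 1 or ZW27941 replicate 2 (adjusted p = 0.0756, 0.0521 and 0.0632 from the same edgeR test).

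CCT3, the gamma subunit (chr1:156308968-156367873, minus strand), was at 438, 436 and 426 CPM in DMSO and at 415, 406 and 431 CPM on ZW27941. ZW27941 replicate 3 lay within the range of DMSO. CCT3 had a log2 fold change of −0.053 (95% confidence interval −0.11 to 0.0011, edgeR quasi-likelihood adjusted p = 0.135 with Benjamini-Hochberg adjustment). CCT7, the eta subunit (chr2:73233420-73253021, plus strand), was at 372, 381 and 375 CPM in DMSO and at 357, 352 and 375 CPM on ZW27941. Again replicate 3 overlapped with DMSO and the others did not. The log2 fold change of CCT7 was −0.058 (95% confidence interval −0.11 to −0.0037, edgeR quasi-likelihood adjusted p = 0.101 with Benjamini-Hochberg adjustment). When 1 library was left out, the log2 fold change ran from −0.080 (without ZW27941 replicate 3) to −0.035 (without ZW27941 replicate 2) for CCT3 and from −0.088 to −0.041 for CCT7, without the same libraries. Both genes passed with upper quartile normalization (edgeR adjusted p = 0.0313 for CCT3 and 0.0233 for CCT7) and without ZW27941 replicate 3 (edgeR adjusted p = 0.00926 and 0.00393). In all 8 CCT subunits, ZW27941 replicate 3, the library with the largest share of reads aligned to several places, had the highest CPM of the ZW27941 libraries; the part of that share in these values was not tested.

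**Figure D2:**
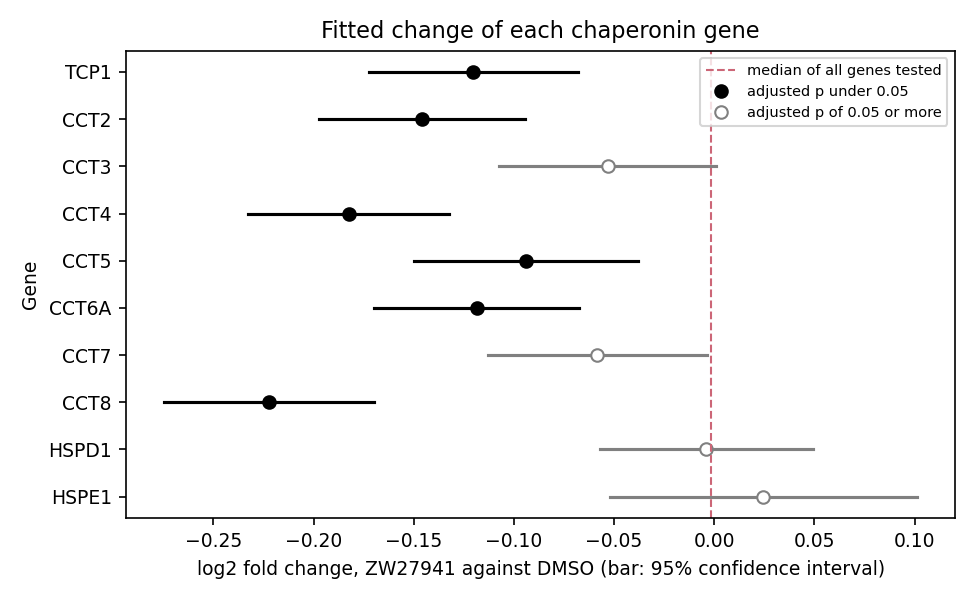
Points give the log2 fold change of ZW27941 against DMSO (x axis) fitted by edgeR over 3 libraries a group for each gene (y axis), and bars the 95% confidence interval; filled points passed an adjusted p under 0.05, and the dashed line is the median of all genes tested. CCT8 lies farthest to the left at −0.22, and the intervals of HSPD1 and HSPE1 span 0.

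HSPD1, the HSP60 subunit of the mitochondrial ring (chr2:197486581-197516737, minus strand), was the member with the most counts. It was at 826, 812 and 820 CPM in DMSO and at 794, 821 and 837 CPM on ZW27941. The ZW27941 libraries spread to both sides of the DMSO libraries, which lay close together. Its log2 fold change was −0.0039 (standard error 0.026, 95% confidence interval −0.057 to 0.049, edgeR quasi-likelihood adjusted p = 0.926 with Benjamini-Hochberg adjustment). This interval holds no fall as large as that of any of the 6 CCT subunits that passed.

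HSPE1, which encodes the lid HSP10 (chr2:197499994-197503457, plus strand), was at 25.6, 23.6 and 23.0 CPM in DMSO and at 24.1, 24.2 and 25.0 CPM on ZW27941. All ZW27941 values fell within the range of DMSO. The log2 fold change was 0.024 (standard error 0.037, 95% confidence interval −0.052 to 0.10, edgeR quasi-likelihood adjusted p = 0.670 with Benjamini-Hochberg adjustment). HSPE1 overlaps other genes in GENCODE v29: 20.2% of its main transcript is shared on the same strand with the read-through gene HSPE1-MOB4, and 29.6% with exons of HSPD1 on the other strand. HSPE1-MOB4 was listed at 0 in every library. Reads that fall in more than 1 gene can be set aside as ambiguous by HTSeq, and this tally held 2.69% to 2.80% of reads, so the level of HSPE1 may be an undercount whose size was not tested.

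Since both products work as 1 machine, the ratio of HSPD1 to HSPE1 counts was taken within each library, where it does not depend on normalization. It was 32.3, 34.5 and 35.7 in DMSO and 33.0, 33.9 and 33.5 on ZW27941. The possible undercount of HSPE1 named above enters this ratio, so its size does not give the balance of both products. The ZW27941 ratios fell inside the range of DMSO, with a difference of −0.030 on the log2 scale (two-sided exact permutation test, p = 0.6, adjusted p = 0.6 over 3 tests of ratios and sums). Between 3 and 3 libraries, 0.1 is the smallest p this test can give.

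The CPM of the 8 CCT subunits summed to 3351, 3309 and 3299 in DMSO and to 3005, 2994 and 3124 on ZW27941. All ZW27941 sums were below all DMSO sums, with a mean log2 difference of −0.13 (two-sided exact permutation test, p = 0.1, adjusted p = 0.15). The ratio of HSPD1 counts to summed CCT counts, again within each library, was 0.246, 0.245 and 0.249 in DMSO and 0.264, 0.274 and 0.268 on ZW27941. Here too the groups were apart, by 0.12 on the log2 scale (two-sided exact permutation test, p = 0.1, adjusted p = 0.15). All 10 members together took 0.415% ± 0.00441 of gene counts in DMSO and 0.389% ± 0.00690 on ZW27941 (SD, n = 3 each).

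Levels of different genes were compared only per length, as CPM per kilobase of the main coding transcript in GENCODE v29. HSPD1 was highest in DMSO at 334 ± 2.90 CPM per kilobase (SD, n = 3), followed by CCT8 at 308 ± 4.42. CCT3 (201 ± 3.02), CCT7 (196 ± 2.46) and TCP1 (192 ± 3.80) came next, each overlapping its neighbour in the order over the DMSO libraries. Below them stood CCT2 (167 ± 1.40), CCT5 (131 ± 3.17), CCT4 (117 ± 1.87) and CCT6A (110 ± 2.08), whose DMSO ranges did not touch. The most abundant CCT transcript was thus 2.80 times the least abundant per length in DMSO, although the ring holds each subunit in equal number. HSPE1 was lowest at 25.3 ± 1.44 CPM per kilobase, 13.2 times below HSPD1, with the undercount named above. When all annotated exon bases of a gene served as its length, HSPD1, CCT8, CCT3 and CCT7 kept their places, whereas CCT4 moved above TCP1 and CCT5 above CCT2. For CCT5 and CCT4, 47.8% and 14.1% of the main transcript are overlapped by genes on the other strand.

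**Figure D3:**
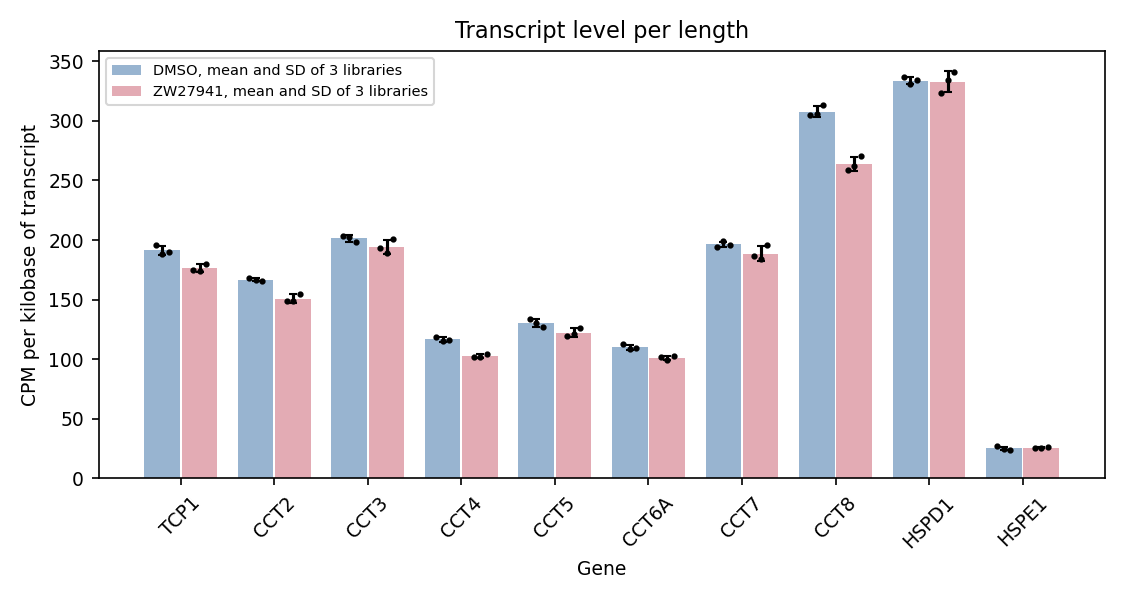
Bars give the mean CPM per kilobase of transcript (y axis, from 0) for each gene (x axis) in DMSO (blue) and on ZW27941 (red), with the SD as error bars and the 3 libraries of a group as points. HSPD1 and CCT8 stand highest at 334 and 308 CPM per kilobase in DMSO, and HSPE1 lowest at 25.3.

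To compare the balance of the CCT transcripts, the share of each subunit in the summed level per kilobase was taken in each library and compared by 8 exact permutation tests. CCT8 made up 21.3%, 21.6% and 22.1% of the sum in DMSO and 20.2%, 20.5% and 20.3% on ZW27941. Its share was lower in all ZW27941 libraries, by 1.36 percentage points on average. CCT4 was lower by 0.300 and CCT2 by 0.139 percentage points, also without overlap. CCT3 went from 14.2% ± 0.164 to 14.9% ± 0.147 and CCT7 from 13.8% ± 0.241 to 14.5% ± 0.142 (SD, n = 3 each), with every ZW27941 library above every DMSO library. Each of these 5 shares had p = 0.1, the smallest the two-sided exact permutation test allows, and an adjusted p of 0.16 over 8 subunits, so none passed. The shares of TCP1, CCT5 and CCT6A overlapped between the groups (exact permutation p from 0.2 to 0.6). A share can rise when others fall, and CCT3 and CCT7 did not have a higher level on ZW27941.

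**Figure D4:**
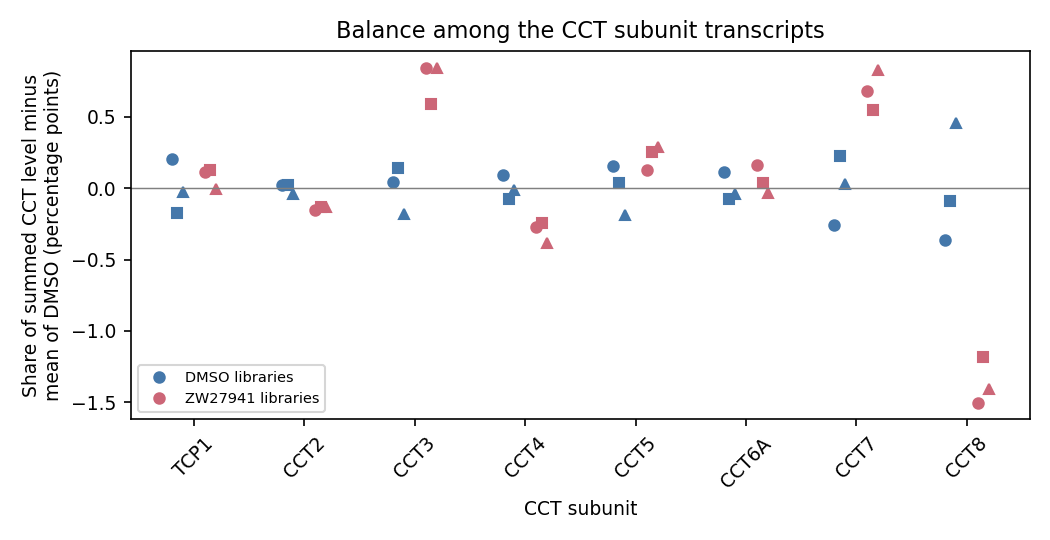
For each CCT subunit (x axis), points give its share of the summed CCT level per kilobase in 1 library minus the mean share of the 3 DMSO libraries, in percentage points (y axis). The ZW27941 points lie below all DMSO points for CCT2, CCT4 and CCT8 and above them for CCT3 and CCT7.

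Near-identical copies of the members could share reads with them. The counted genes include 53 pseudogenes named after a member, 26 of them for HSPE1 and 15 for HSPD1, of which 13 passed the filter on low counts. Together they held 5.28% to 5.72% of the sum of CCT6A and its copies per library, 0.639% to 0.718% for CCT8, 1.02% to 1.08% for HSPD1 and 7.33% to 9.18% for HSPE1, and at most 0.030% for the others. The share of HSPE1 copies was 8.31% to 9.18% in DMSO and 7.33% to 7.91% on ZW27941. CCT8P1 fell from a mean of 4.38 CPM to 3.59 CPM (log2 fold change −0.29, standard error 0.069, edgeR quasi-likelihood adjusted p = 0.00297 with Benjamini-Hochberg adjustment). CCT6P3 fell by 0.17 on the log2 scale (standard error 0.064, adjusted p = 0.0422 from the same edgeR test). HSPE1P26 fell by 1.02 (standard error 0.37, adjusted p = 0.0396 from the same edgeR test), but its mean was only 0.16 CPM in DMSO and 0.078 CPM on ZW27941. Of the pseudogenes, 3 were lower by this test, 2 by DESeq2 and 4 each by the exact and likelihood ratio tests. None of the pseudogenes was higher by edgeR's quasi-likelihood test, at an unadjusted p under 0.05 (0 genes), or by DESeq2, the exact or the likelihood ratio test (0 genes each). With the counts of all copies added to their parent genes, the same 6 of 10 members were lower and 0 were higher. Reads aligned to several places, 3.63% to 5.25% per library, were tallied apart from the genes. This sum cannot return them, and the part of such reads in the members' values was not tested.

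Genes that work with the chaperonins were examined next, as 8 lists with 58 genes written by function. Of these, 57 were tested, 15 were lower and 12 were higher. This is 27 called genes of 57, where 30.1% of all genes tested were called in either direction. By direction, 13.8% of all genes tested were lower and 16.3% higher, the shares to set beside the counts of each list below.

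Prefoldin, the complex that hands actin and tubulin to CCT, had 3 of its 6 subunits lower and 0 higher, with a median log2 fold change of −0.081. PFDN4 was at 18.1, 17.9 and 18.9 CPM in DMSO and at 15.3, 15.9 and 15.9 CPM on ZW27941, without overlap. It fell by a log2 fold change of 0.22 (standard error 0.037, edgeR quasi-likelihood adjusted p = 7.60e-05 with Benjamini-Hochberg adjustment). PFDN6 had a log2 fold change of −0.16 and PFDN5 of −0.091, the latter with overlapping libraries. At an unadjusted p under 0.05, 4 prefoldin genes were lower and 0 higher, and DESeq2, the exact and the likelihood ratio test each called 3 lower and 0 higher.

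The tubulin folding cofactors, which take over α- and β-tubulin after CCT and join them into dimers, were 5 genes. Of these, TBCA, TBCB and TBCE fell, with log2 fold changes of −0.15, −0.13 and −0.12, and 0 rose. TBCA was at 116, 113 and 118 CPM in DMSO and at 102, 104 and 108 CPM on ZW27941, with a gap between the groups (standard error of the log2 fold change 0.028, edgeR quasi-likelihood adjusted p = 0.00035 with Benjamini-Hochberg adjustment). TBCC and TBCD, the other members of the list, named after their values were seen, had log2 fold changes of −0.045 and −0.060 and did not pass. By DESeq2 4 of the 5 were lower and 0 higher, by the exact and likelihood ratio tests 3 and 0, and at an unadjusted p under 0.05 4 and 0.

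The phosducin-like cofactors, which bind CCT and modulate its folding of substrates, had 1 of 3 tested genes higher. PDCL3 rose from 25.8, 24.1 and 24.7 CPM to 27.0, 27.4 and 28.6 CPM, a log2 fold change of 0.16 (standard error 0.034, edgeR quasi-likelihood adjusted p = 0.00129 with Benjamini-Hochberg adjustment). No gene of this list was lower by edgeR's quasi-likelihood test, the other tests (0 each) or at an unadjusted p under 0.05 (0), and PDCL2 was too low to test. The chaperonin-like proteins (CCT6B, the testis form of the zeta subunit, and MKKS, BBS10 and BBS12, which assemble the BBSome) had 0 of 4 genes called by edgeR's quasi-likelihood test or any other test used, with 1 lower at an unadjusted p under 0.05. CCT6B, named after its values were seen, had a mean of 3.89 CPM in DMSO against 299 CPM for CCT6A.

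Among 20 reported substrates of CCT, 7 were higher and 3 were lower, beside 16.3% and 13.8% of all genes tested. Their median log2 fold change was 0.022. The 3 with the lowest p were tubulins, the building blocks of microtubules. TUBA4A rose from 57.2, 59.2 and 56.8 CPM to 73.4, 73.4 and 74.7 CPM, a log2 fold change of 0.35 (standard error 0.027, edgeR quasi-likelihood adjusted p = 2.63e-09 with Benjamini-Hochberg adjustment). TUBB4B rose by 0.24 and TUBB by 0.19 on the log2 scale, both without overlap between groups. Named after their values were seen, TUBB6, ACTB, TUBG1 and VHL were the other genes that rose (log2 fold changes 0.16, 0.15, 0.14 and 0.078), and HDAC3, STAT3 and MLST8 fell (−0.10, −0.098 and −0.096). ACTB encodes β-actin, and VHL the ligase subunit that ZW27941 binds. TUBA1B, named after its values were seen as the α-tubulin gene of the list with the most counts, was at 804, 821 and 816 CPM in DMSO and at 787, 822 and 836 CPM on ZW27941 and did not pass. Tubulin and actin genes have close paralogs and pseudogenes, so their reads could be split between copies.

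In the mitochondrial matrix, HSP60 works beside the Hsp70 system and several proteases. Of the Hsp70 system and TRAP1, 2 of 6 genes were lower and 1 was higher. TRAP1, the mitochondrial Hsp90, went from 183, 184 and 179 CPM in DMSO to 155, 156 and 159 CPM on ZW27941, a fall of 0.21 on the log2 scale (standard error 0.024, edgeR quasi-likelihood adjusted p = 8.38e-07 with Benjamini-Hochberg adjustment). GRPEL1, the nucleotide exchange factor of mitochondrial Hsp70, rose by 0.21, and DNAJA3, its J-domain partner, fell by 0.11 on the log2 scale. HSPA9, the mitochondrial Hsp70 itself, was at 447, 435 and 431 CPM in DMSO and at 420, 425 and 433 CPM on ZW27941 and did not pass (log2 fold change −0.040, edgeR quasi-likelihood adjusted p = 0.238 with Benjamini-Hochberg adjustment). HSPA9 was named after its values were seen, as the main chaperone of that system.

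Among the 8 genes for mitochondrial proteases and a disaggregase, 2 were higher and 1 was lower, beside 16.3% and 13.8% of all genes tested. CLPB, which pulls apart protein aggregates, rose from 42.8, 44.3 and 44.3 CPM to 53.8, 53.0 and 52.9 CPM, a log2 fold change of 0.28 (standard error 0.028, edgeR quasi-likelihood adjusted p = 1.26e-07 with Benjamini-Hochberg adjustment). CLPX and CLPP, the unfoldase and the peptidase of 1 protease, went in opposite directions, with log2 fold changes of −0.14 and 0.11 and no overlap between groups for either.

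Of 5 genes for transcription factors known to act on chaperone genes, 3 fell and 1 rose. HSF1 rose by 0.084 on the log2 scale, from 86.0, 85.8 and 84.5 CPM to 90.7, 88.2 and 92.9 CPM (standard error 0.026, edgeR quasi-likelihood adjusted p = 0.0177 with Benjamini-Hochberg adjustment). HSF1 was named after its values were seen. DDIT3, ATF5 and ATF4, factors of the integrated stress response and of the mitochondrial unfolded protein response, fell by 0.74, 0.28 and 0.20 on the log2 scale. ATF5 went from 33.0, 37.0 and 35.6 CPM to 27.6, 30.3 and 29.1 CPM, with all ZW27941 libraries below all DMSO libraries.

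**Figure D5:**
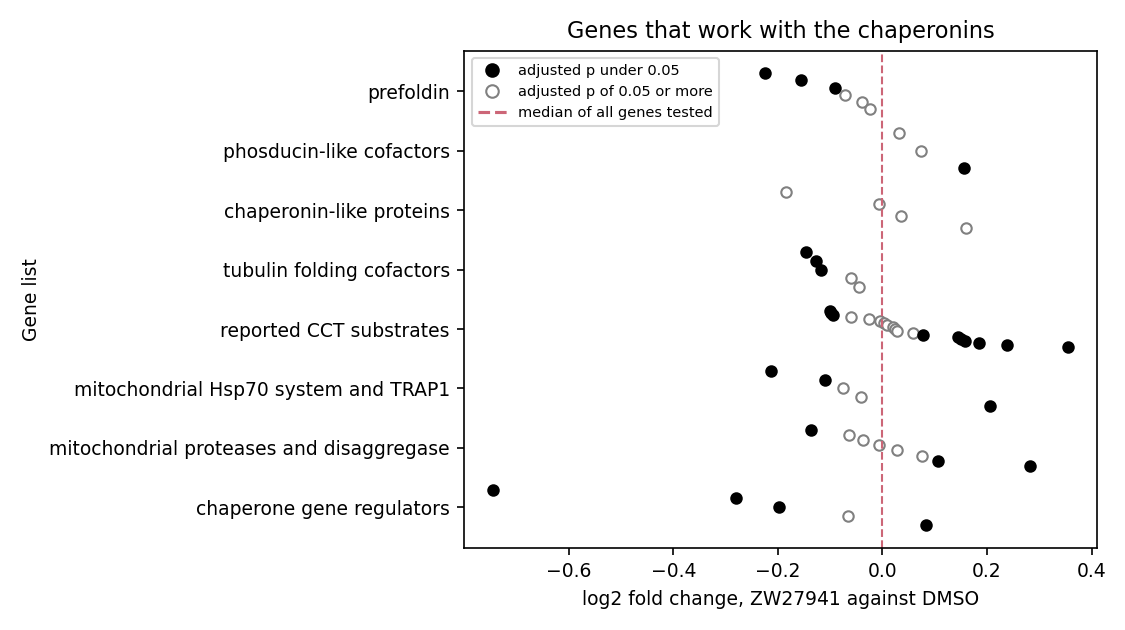
Each point is 1 gene, placed by its log2 fold change of ZW27941 against DMSO (x axis) in its list (y axis, genes spread vertically within a list); filled points passed an adjusted p under 0.05, the dashed line is the median of all genes tested, and the 55 genes with a group mean above 1 CPM are drawn. Called prefoldin and tubulin cofactor genes lie to the left of the line, called substrates lie on both sides with 7 to the right, and DDIT3 is farthest left at −0.74.

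Last, the genes whose profile over the 6 libraries was closest to the mean profile of the CCT subunits were sought among 6104 other genes whose mean log2 CPM was 5 or more. The measure was the root mean square difference of log2 CPM, each gene taken relative to its DMSO mean. The closest were PDCD2 (0.0077), PABPC4 (0.0080), CHCHD3 (0.0092), RPL13 (0.0095) and PWP1 (0.0098). PDCD2 is a chaperone of a ribosomal protein, PABPC4 binds poly(A) tails, CHCHD3 builds the contact sites of mitochondrial cristae, and RPL13 is a ribosomal protein. Their log2 fold changes ran from −0.13 to −0.12. Among the subunits themselves, TCP1 lay closest to the CCT mean (0.011) and CCT8 farthest (0.072). HSPD1 lay at 0.087 and HSPE1 at 0.11. Each subunit is itself part of the CCT mean, which draws its distance down, so the subunits cannot be compared directly with HSPD1 and HSPE1. For the mean of HSPD1 and HSPE1 the closest were MPHOSPH10 (0.0070), SLC25A3 (0.011), the mitochondrial phosphate carrier, and ODC1 (0.014), the first enzyme of polyamine synthesis. With so many candidates and only 6 libraries in 2 groups, such likeness is a description.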

How the data were processed

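RNA of 6 MOLM13 libraries was sequenced, 3 treated with DMSO and 3 with ZW27941. The authors deposited raw counts of reads per gene symbol for each library, unnormalized and unfiltered. Per the submitters' processing notes, HISAT2, SAMtools 1.19.2 and HTSeq 2.0.3 were used with hg38; the annotation, overlap mode and strand setting are not given in the sources used here. HTSeq's 5 tallies of unassigned reads (37.4% to 39.8% of reads) were left out.

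The tests used edgeR 4.0.16 under R 4.3.3 (TMM factors, filterByExpr, quasi-likelihood test) over all 20399 genes passing the filter, with Benjamini-Hochberg adjustment over these genes and a threshold of 0.05. Standard errors were derived from the F statistic, and intervals cover 95%. CPM used TMM factors. Ratios, sums and shares were compared by two-sided exact permutation tests. Alternatives included DESeq2 1.42.0. Steps were tested on simulated data with changed genes of all levels. Recovered were 54 of 100 genes changed by 0.25 and 66 of 100 changed by 0.5 on the log2 scale, with 4 false calls.

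Coordinates and lengths came from GENCODE v29 (GRCh38), not necessarily the authors' annotation, and promoter sequences from RefSeq (GRCh38.p14). Length was that of the longest principal coding transcript. Pseudogenes were matched by symbol, with those named CCT6P counted under CCT6A. Replicate libraries differed by more than counting noise (chi-square per degree of freedom from 4.33 to 11.5). Members, lists and tests were chosen with earlier results of these data known. Named were all members, in each list the 3 called genes with the lowest p, called pseudogenes (at most 5) and the genes most alike in profile (5 and 3), with exceptions stated where they occur. In addition to the markers given, 1 marker of another cell type is not reported here.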

Additional observations from a re-analysis of the deposited data

How the results depend on the processing

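Of 160 refitted values (10 members under 16 other settings), 148 kept their direction and their side of the threshold. The number of members lower was 6 in every setting except upper quartile normalization (8) and fits that left out 1 library (5 to 8, the 8 without ZW27941 replicate 3), and the number higher was 0 throughout. TCP1, CCT2, CCT4, CCT6A and CCT8 passed in all settings. The partner genes gave 12 to 20 lower and 10 to 12 higher across fits that left out 1 library, and 21 lower and 10 higher with upper quartile normalization. Upper quartile normalization moved the median of all genes by little (to −0.025), and the CCT median minus that of all genes was −0.12 in this and the main fit. HSPD1 changed sign around 0, to 0.0059 with library size only, to 0.0016 without a filter, and from −0.024 to 0.017 when 1 library was left out. Leaving out 1 library took HSPE1 from −0.0069 to 0.071, the log2 ratio of HSPD1 to HSPE1 from −0.069 to 0.0033, and the change of the TCP1 share from −0.0086 to 0.18 percentage points. None of these had passed a test, and the cause was not tested. Settings for the shares, the ratio of HSPD1 to summed CCT and the partner genes were chosen after seeing the data.

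Replicate numbers are shared by both groups, and the paper's general statistics name a paired t-test on triplicate experiments. Deviations of same-numbered libraries were uncorrelated (−0.012, 0.012 and 0.017), so they gave no sign of a pairing. Taken over genes of all levels in so few libraries, these values cannot exclude a shared culture or day. With the replicate number as a block, likewise 6 members were lower and 0 higher, and 15 partner genes were lower and 12 higher.

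Among the 10 members the changes are small, CCT8 having the largest (it fell by 14.3%), and they rest on 3 libraries a group, so the exact tests could not pass 0.05. Overlapping genes, unstated strand and read-through annotation limit the levels of HSPE1, CCT5, TCP1 and CCT4.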
